A study of Rattus norvegicus with 18 samples.

Results

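Expression of 10 iron and heme handling genes was examined in the lungs of rats exposed to MWNT-7, a straight and rigid multi-walled carbon nanotube (MWCNT). The genes were Tf, Tfrc, Slc40a1, Slc11a1, Slc11a2, Hmox1, Fth1, Ftl1, Cp and Steap4, and each was found by its symbol among the 22081 gene rows that the 3 deposited tables share. The animals were male F344/DuCrlCrlj rats dosed by intratracheal instillation every 4 weeks from 9 weeks of age. Each dose was 0.5 mg/kg of MWNT-7 for the exposed rats and vehicle, saline with a detergent, for the control rats, so that the instillation itself was common to both. Lungs were taken after 0.5, 1 and 2 years, and each time point is named by its year (Year 0.5 and so on), from 3 rats of either treatment each time, 18 rats in all. Rats are numbered within a group by the replicate number in their sample title, which can differ from the study's animal number. RNA came from small pieces of the accessory lobe without visible tumor nodules, so each library holds a mixture of cell types. In such bulk tissue a change in the number of cells of a type and a change in RNA per cell cannot be told apart. The authors state that the frozen pieces could have held focal lesions, among them alveolar and atypical hyperplasias and early adenomatous changes.

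Iron travels in plasma bound to transferrin, enters cells through the transferrin receptor, and is carried out of endosomes by divalent metal transporters after it has been reduced. Inside the cell it is used for heme and iron-sulfur clusters or stored in ferritin, a shell built of heavy and light chains, and it leaves through ferroportin with the help of a copper ferroxidase. In the lung, alveolar macrophages take up iron and the hemoglobin of stray red cells, break heme down with heme oxygenase and store the iron that is released.

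The libraries held between 13297643 and 21130757 counted reads. Levels are given as TPM, a share of all transcripts that adjusts for gene length and depth, and differences are log2 fold changes of TMM-scaled counts with their standard errors (SE). The false discovery rate (FDR) is the Benjamini-Hochberg adjusted p of edgeR's quasi-likelihood test over all genes tested. A gene was called at an FDR below 0.05 and was a differentially expressed gene (DEG) when its absolute log2 fold change was also above 1. All 14 lung epithelium markers were detected in every group, and at each time point 8 of them were higher and 5 lower in MWCNT-treated rats. The direction differed between cell types within this list. At Year 0.5 the alveolar type 2 genes Sftpc and Sftpa1 had means of 20141 and 5577 TPM in controls and 35518 and 14229 TPM in treated rats. The alveolar type 1 gene Ager and the club cell gene Scgb1a1 had 2181 and 27083 TPM in controls and 1443 and 13384 TPM in treated rats. Of 4 airway ciliated markers, 3, 4 and 4 were lower, with a sum of 1116 to 1353 TPM in controls and 218 to 517 TPM in the treated rats. All 12 macrophage markers were listed, with 11, 11 and 12 of them higher in MWCNT-treated rats at the successive time points. Their summed level was 24342 to 30507 TPM in controls and 55300 to 64442 TPM in the MWCNT-treated rats. Most of that sum was Lyz2, with a mean of 24942 TPM in control and 55904 TPM in treated rats at Year 0.5. Of the 7 red cell markers listed, 6, 6 and 7 were lower, and their sum was 17216 to 43239 TPM in controls and 4367 to 10976 TPM in the treated rats. Of 7 neutrophil markers tested, 1, 2 and 2 were higher. The part of these cell types in the differences given here was not tested.

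**Figure D1:**
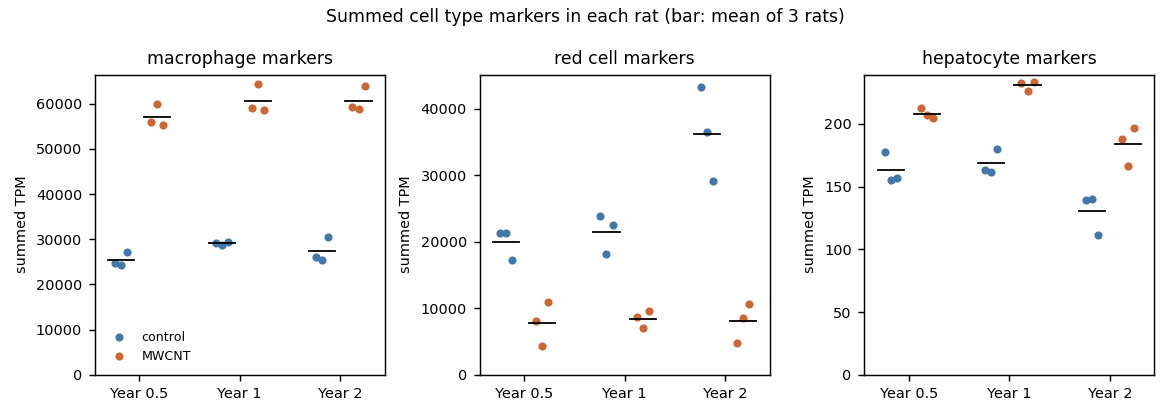
Summed TPM of the macrophage, red cell and hepatocyte markers (vertical axes) in each rat by year, with control rats in blue, MWCNT-treated rats in orange and the mean of 3 rats as a bar. Every MWCNT-treated rat lay above every control rat for the macrophage sum, which is mostly Lyz2. Every treated rat lay below every control rat for the red cell markers. The hepatocyte sum is mostly the gene Fgg.

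Of the 10 iron and heme handling genes, 9 had counts and were tested, and none of the 9 was lower in MWCNT-treated rats. The 10 genes and the pathway list below were chosen with earlier results of these data known. Counts of calls among them therefore only describe these genes. At Year 0.5, 8 of the 9 were called higher, against 20.2% of all genes tested called higher and 18.6% called lower. At Year 1 all 9 were called higher, against 21.6% higher and 19.6% lower, and at Year 2 8 of the 9 were, against 25.2% higher and 24.0% lower. The number that were upregulated DEGs was 3, 4 and 5 at the successive time points, where 6.07%, 6.13% and 8.17% of all genes were. The median log2 fold change of the 9 genes was 0.87, 0.93 and 1.31, while that of all genes tested was -0.02, 0.00 and -0.01. Slc11a1 and Hmox1 were DEGs at every time point, Tf and Ftl1 at Year 1 and Year 2, and Cp at Year 0.5 and Year 2. At Year 0.5 Cp lay just inside the DEG limit, at 1.001, and Ftl1 just outside it, at 0.96. With library size alone in place of TMM factors, the median of all genes moved to -0.12, -0.13 and -0.18 and the share of calls that were higher went from 52.1%, 52.3% and 51.2% to 35.1%, 33.2% and 31.7%. With that scaling 7, 9 and 8 of the 9 genes were still called higher, Fth1 at Year 0.5 being the one lost, and Cp at Year 0.5 fell short of the DEG limit (0.90).

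**Figure D2:**
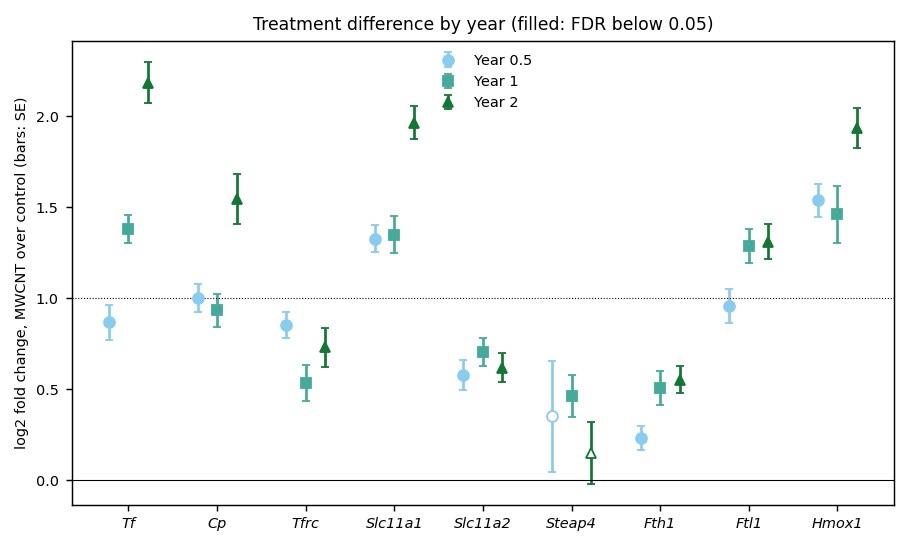
Log2 fold change of MWCNT-treated over control rats (vertical axis, bars show SE, 3 rats per group) for the 9 genes with counts at the 3 time points. Filled symbols passed an FDR of 0.05 and the dotted line marks a log2 fold change of 1. The symbols of Tf climbed from 0.87 to 2.19 and those of Steap4 stayed under 0.5.

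Tf encodes transferrin, the iron carrier of plasma, and its row lies on chromosome 8 (111673547 to 111721333, minus strand, Rnor_6.0). Its level in the 3 control rats was 67.2, 71.1 and 82.8 TPM at Year 0.5, 83.9, 87.0 and 89.7 TPM at Year 1, and 71.4, 72.2 and 93.7 TPM at Year 2. The MWCNT-treated rats had 127, 128 and 109 TPM at Year 0.5, 193, 197 and 186 TPM at Year 1, and 312, 284 and 332 TPM at Year 2. The treated and control rats did not overlap at any time point, and the treated rats of the 3 time points did not overlap with one another. Between treatments the log2 fold change was 0.87 (SE 0.10, FDR = 0.000222), 1.38 (SE 0.08, FDR = 4.89e-06) and 2.19 (SE 0.11, FDR = 1.48e-06), which is a 1.83-fold, 2.60-fold and 4.55-fold difference. The treatment difference of Tf at Year 2 exceeded that at Year 0.5 by 1.32 on the log2 scale (SE 0.15, FDR = 0.000322 for the interaction of treatment and time).

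Transferrin in plasma is made mainly by the liver, so hepatocyte markers were looked at beside Tf. Of 11 such markers listed, 8 were too low to be tested at any time point. Alb had at most 7 counts in any rat, and Apoa2, Ttr, Fgb and Fga had at most 2. The summed hepatocyte list was 112 to 180 TPM in controls and 167 to 233 TPM in the treated rats, and most of that sum was the single gene Fgg. Of the 3 markers tested, only Fgg was higher, which it was at every time point (0.95, 1.06 and 1.39), with 74.0 to 119 TPM in controls and 157 to 208 TPM in the treated rats. Cyp2e1 was lower at every time point (-1.41, -1.41 and -2.86), and Serpina1 was lower at Year 0.5 and Year 2 (-1.50 and -1.39) and differed by -0.48 at Year 1 (FDR = 0.0704). Which cells held the Tf transcripts was not tested.

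Cp encodes ceruloplasmin, the copper ferroxidase of plasma that oxidizes iron as it leaves cells (chromosome 2, 104744461 to 104799853, plus strand). The control rats had 70.7, 64.3 and 73.4 TPM at Year 0.5, 65.5, 83.1 and 71.6 TPM at Year 1, and 44.7, 38.4 and 53.5 TPM at Year 2. The treated rats had 120, 135 and 123 TPM, then 117, 116 and 124 TPM, then 130, 103 and 110 TPM. All treated rats stood above all control rats, and the control rats of Year 2 were the lowest of all. In log2 terms the fold change was 1.00 (SE 0.08, FDR = 2.94e-05) at Year 0.5, 0.93 (SE 0.09, FDR = 8.50e-05) at Year 1 and 1.54 (SE 0.14, FDR = 2.52e-05) at Year 2. In control rats Cp fell by 0.60 between Year 0.5 and Year 2 (SE 0.12, FDR = 0.00782), whereas in treated rats the difference between these time points was -0.05 (SE 0.11, FDR = 0.807). The difference between these effects, 0.55 (SE 0.16), missed the threshold (FDR = 0.113).

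Tfrc encodes the transferrin receptor that brings transferrin-bound iron into cells (chromosome 11, 71397383 to 71419223, minus strand). Its level was 13.4, 13.4 and 14.2 TPM in the control rats of Year 0.5, 13.9, 14.9 and 17.6 TPM at Year 1, and 10.4, 12.5 and 14.7 TPM at Year 2. In the treated rats it was 22.9, 22.9 and 21.0 TPM, then 19.6, 19.2 and 18.4 TPM, then 17.5, 17.2 and 18.8 TPM. The groups did not overlap within a time point, with the smallest gap, 17.6 against 18.4 TPM, at Year 1. The log2 fold change was 0.85 (SE 0.07, FDR = 5.78e-05), 0.53 (SE 0.10, FDR = 0.00290) and 0.73 (SE 0.11, FDR = 0.000492), and none of the interactions with time was called for Tfrc.

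The sequences before the annotated starts were read from RefSeq (GRCr8), which gave a promoter window for 6 of the 10 genes. The 250 bases before the start are printed for Tf and Cp, whose levels changed with time, and for Tfrc and Steap4, which held a motif match. Capitals mark the matches. Tf is chr8:112695377-112695626 (minus strand), Cp is chr2:104368420-104368669 (plus strand), Tfrc is chr11:81690319-81690568 (minus strand) and Steap4 is chr4:27054770-27055019 (minus strand).
Tf: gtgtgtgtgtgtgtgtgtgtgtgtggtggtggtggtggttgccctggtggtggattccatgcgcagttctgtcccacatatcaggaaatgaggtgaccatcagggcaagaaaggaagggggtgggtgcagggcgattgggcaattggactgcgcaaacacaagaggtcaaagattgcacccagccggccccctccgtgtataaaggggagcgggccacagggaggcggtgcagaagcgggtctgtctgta
Cp: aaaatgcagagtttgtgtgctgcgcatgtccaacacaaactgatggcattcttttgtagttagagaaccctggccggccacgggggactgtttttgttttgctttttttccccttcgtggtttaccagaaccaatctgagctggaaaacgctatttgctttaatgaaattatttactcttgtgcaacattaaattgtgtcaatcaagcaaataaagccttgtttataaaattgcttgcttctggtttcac
Tfrc: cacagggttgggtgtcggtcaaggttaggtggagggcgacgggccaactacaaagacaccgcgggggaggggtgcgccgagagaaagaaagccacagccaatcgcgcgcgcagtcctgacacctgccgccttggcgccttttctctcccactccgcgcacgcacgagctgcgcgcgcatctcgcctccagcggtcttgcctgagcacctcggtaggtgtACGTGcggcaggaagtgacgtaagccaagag
Steap4: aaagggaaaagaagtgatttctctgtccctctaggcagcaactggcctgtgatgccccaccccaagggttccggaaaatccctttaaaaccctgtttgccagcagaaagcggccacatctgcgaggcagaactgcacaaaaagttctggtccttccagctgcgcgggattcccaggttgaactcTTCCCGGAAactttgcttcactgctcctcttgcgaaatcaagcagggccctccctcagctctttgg
Both strands were searched for the antioxidant response element TGACNNNGC, the hypoxia response core ACGTG and the gamma-activated site TTCNNNGAA. Tfrc held ACGTG at 31 to 27 bases before the start and Steap4 held TTCCCGGAA at 66 to 58 bases before it, and the other windows of the 6 genes, Slc11a2 with 2 starts and Slc40a1 among them, held none of the 3 motifs. In all 33469 promoter windows of the same 250 bases, 10.1% held the antioxidant response element, 16.6% the hypoxia response core and 7.67% the gamma-activated site. A match is a run of letters and not a measured binding site.

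Slc11a1 encodes the divalent metal transporter of phagocyte lysosomes and phagosomes (chromosome 9, 81655629 to 81666706, plus strand). The control rats had 31.6, 33.4 and 31.5 TPM at Year 0.5, 34.0, 44.1 and 39.3 TPM at Year 1, and 27.1, 35.2 and 36.5 TPM at Year 2. The treated rats had 70.3, 77.4 and 71.0 TPM, then 89.4, 85.3 and 79.0 TPM, then 111, 107 and 113 TPM. Even the lowest treated rat, at 70.3 TPM, stood above the highest control rat, at 44.1 TPM. Between treatments the log2 fold change was 1.33 (SE 0.07, FDR = 7.08e-06), 1.35 (SE 0.10, FDR = 2.10e-05) and 1.97 (SE 0.09, FDR = 9.11e-07), or 2.51-fold, 2.55-fold and 3.91-fold. The treatment difference at Year 2 exceeded that at Year 0.5 by 0.64 (SE 0.13, FDR = 0.0257). Without control rat 2 or MWCNT-treated rats 1 or 3 of Year 0.5, control rat 1 of Year 2 or MWCNT-treated rat 1 of Year 2, each in turn, this interaction of Slc11a1 was 0.55 to 0.62 and was not called.

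The genes whose log2 CPM over the 18 rats lay closest to that of Slc11a1, each centred on its own mean, were Stom, Itgb2 and Gusb among 14843 genes, with a root mean square difference of 0.11, 0.12 and 0.14. Their log2 fold changes at Year 2 were 1.83, 2.01 and 1.76, beside 1.97 for Slc11a1. Itgb2 is the shared chain of the leukocyte integrins and Gusb is a lysosomal enzyme.

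Slc11a2 encodes the divalent metal transporter that carries iron out of endosomes in most cells (chromosome 7, 142025815 to 142063212, minus strand). Its level was 18.2 to 22.6 TPM in the 9 control rats and 26.0 to 31.5 TPM in the 9 MWCNT-treated rats, with no overlap. In log2 terms the fold change was 0.58 (SE 0.08, FDR = 0.000671), 0.70 (SE 0.08, FDR = 0.000183) and 0.62 (SE 0.08, FDR = 0.000195). Slc11a2 had 700 to 1759 counts per rat, and neither its interaction with time nor its effect of time in either treatment was called.

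Steap4 encodes a metalloreductase that reduces iron and copper in endosomes (chromosome 4, 23090029 to 23135354, minus strand). The control rats had 9.98, 18.2 and 29.9 TPM at Year 0.5, 21.2, 26.8 and 25.2 TPM at Year 1, and 18.2, 20.003 and 31.3 TPM at Year 2. The treated rats had 22.8, 20.3 and 24.0 TPM, then 33.9, 24.3 and 27.9 TPM, then 20.04, 22.4 and 23.7 TPM. The treated and control rats overlapped at every time point, and control rat 3 was the highest rat of its time point at both Year 0.5 and Year 2. The pooled SD of log2 CPM within groups was 0.37 for Steap4, the largest of the 9 genes, against a median of 0.15 over all genes. The log2 fold change was 0.35 (SE 0.30, FDR = 0.390), 0.46 (SE 0.12, FDR = 0.0117) and 0.15 (SE 0.17, FDR = 0.488). Without control rat 3, Steap4 was called at Year 0.5 (0.81, FDR = 0.0202) and at Year 2 (0.41, FDR = 0.00596), and at Year 1 the call was lost in the model of all 18 rats (FDR = 0.156) and with limma on log2(TPM + 1) (0.22, FDR = 0.243).

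**Figure D3:**
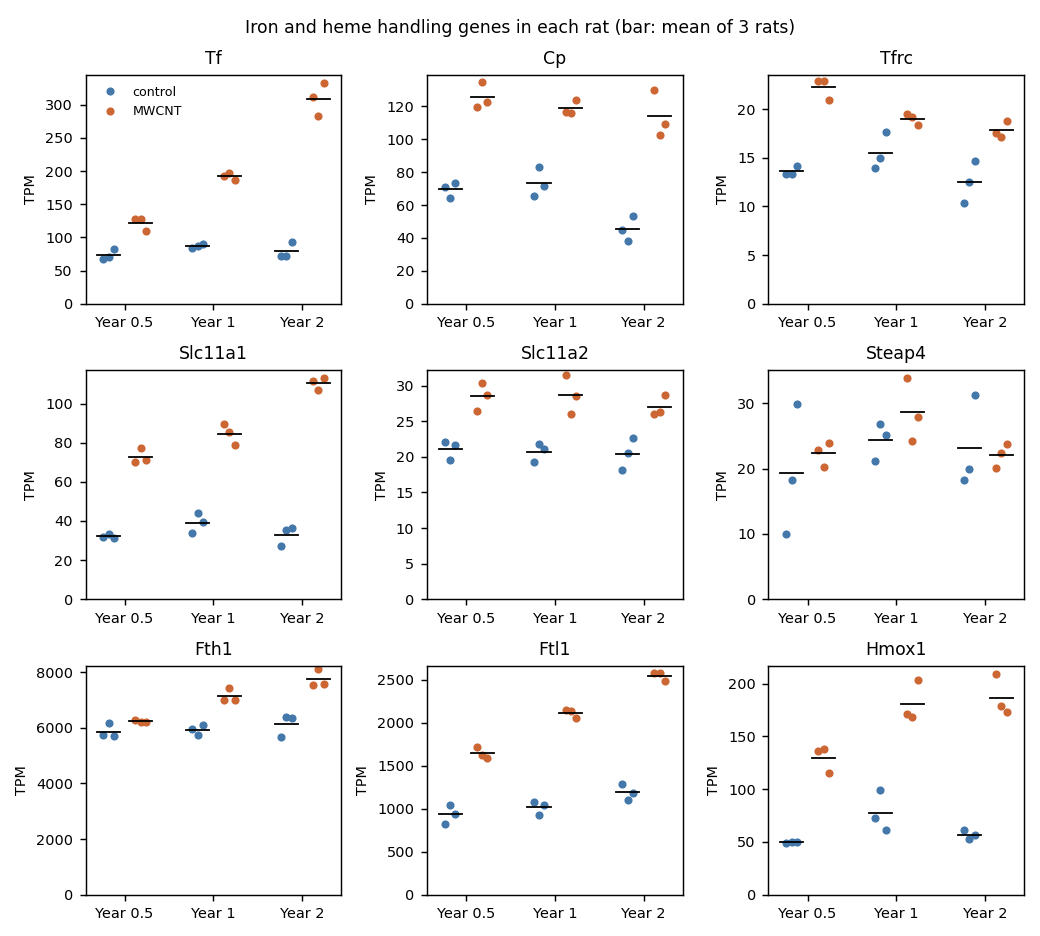
TPM (vertical axes, each from 0) of the 9 genes with counts in each rat, with control rats in blue, MWCNT-treated rats in orange and the mean of 3 rats as a bar, at the 3 time points. Steap4 is the gene whose groups overlap at every time point, and the treated rats of Tf rise from 109 to 332 TPM.

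Fth1 and Ftl1 encode the heavy chain of ferritin, which oxidizes iron, and the light chain, which helps to build its mineral core. Per length these were the most abundant of the 9 genes in every rat. Fth1 (chromosome 1, 226030938 to 226033228, plus strand) stood at 5738, 6152 and 5693 TPM in the control rats of Year 0.5, 5946, 5729 and 6080 TPM at Year 1, and 5676, 6367 and 6353 TPM at Year 2. In the treated rats Fth1 was 6276, 6208 and 6216 TPM, then 6978, 7443 and 6982 TPM, then 7524, 8109 and 7587 TPM. The groups did not overlap within a time point, with the narrowest gap at Year 0.5, 6152 against 6208 TPM. Between treatments the log2 fold change of Fth1 was 0.23 (SE 0.07, FDR = 0.0249), 0.51 (SE 0.09, FDR = 0.00265) and 0.55 (SE 0.08, FDR = 0.000306). At Year 0.5 this small difference was not called with library size alone (0.13, FDR = 0.144), with limma on log2(TPM + 1) (0.09, FDR = 0.304), or in 4 of the 6 fits that left out a rat, namely control rat 1 or 3 or MWCNT-treated rat 1 or 2 (FDR 0.0527 to 0.0872).

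The light chain was counted in 2 rows whose reads may be shared between near-identical copies. The deposited row named Ftl1 is a short gene on chromosome 5 (152325871 to 152326778, plus strand), whereas the row LOC100360087 (chromosome 1, 101448346 to 101449829, minus strand) lies between Gys1 and Bax, the place where RefSeq GRCr8 puts Ftl1. Values of both rows are therefore given. The Ftl1 row read 822, 1047 and 936 TPM in the control rats of Year 0.5, 1084, 927 and 1050 TPM at Year 1, and 1289, 1102 and 1180 TPM at Year 2. In the treated rats the Ftl1 row read 1722, 1621 and 1588 TPM, then 2154, 2135 and 2058 TPM, then 2579, 2575 and 2491 TPM. LOC100360087 was 2042 to 2533 TPM in controls and 3875 to 5784 TPM in the treated rats. All treated rats stood above all control rats in both rows. In log2 terms the fold change was 0.96 (SE 0.09, FDR = 0.000103), 1.29 (SE 0.10, FDR = 2.10e-05) and 1.31 (SE 0.10, FDR = 7.75e-06) for Ftl1, and 1.05 (SE 0.09, FDR = 4.97e-05), 1.32 (SE 0.11, FDR = 4.36e-05) and 1.44 (SE 0.08, FDR = 2.31e-06) for LOC100360087. With the counts of both rows summed it was 1.01, 1.31 and 1.38. The Ftl1 row took 37.8% to 48.1% of the light chain counts of a rat, and its mean share was lower by 1.33 percentage points in treated rats, which an exact two-sided permutation of rats within time points did not call (p = 0.1985).

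The ratio of heavy to light chain, Fth1 over the sum of both light chain rows in TPM, was chosen for a look after the values had been seen. It was 1.86 ± 0.0681, 1.77 ± 0.0913 and 1.72 ± 0.116 in the control rats of the successive time points (SD, n = 3). It was 1.07 ± 0.0559, 1.02 ± 0.0510 and 0.954 ± 0.0482 in the treated rats. No treated rat had a ratio above 1.14 and no control rat had one below 1.59. The mean log2 ratio fell by 0.81 with treatment, and the exact two-sided permutation test within time points gave p = 0.00025, the smallest p that its 8000 regroupings allow. Because the ratio was chosen after the values had been seen, this p only describes their separation. The ferritin rows together made up 0.902% ± 0.0509, 0.926% ± 0.0227 and 0.970% ± 0.0398 of all TPM in controls and 1.20% ± 0.0321, 1.42% ± 0.0748 and 1.59% ± 0.0454 in the treated rats (SD, n = 3). This share uses the same rows, and its exact permutation p, again 0.00025, likewise only describes values already seen.

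**Figure D4:**
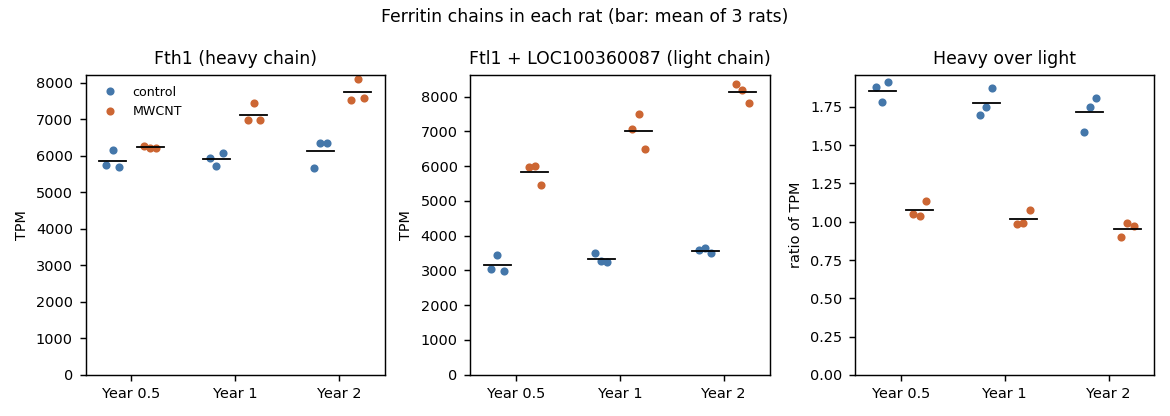
TPM of the ferritin heavy chain gene Fth1, summed TPM of both light chain rows, and their ratio (vertical axes, each from 0) in each rat by year, with control rats in blue, MWCNT-treated rats in orange and the mean of 3 rats as a bar. The ratio was between 1.59 and 1.91 in the control rats and between 0.900 and 1.14 in the treated rats.

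Hmox1 encodes heme oxygenase 1, the inducible enzyme that opens heme and sets its iron free (chromosome 19, 14508616 to 14515456, plus strand). The control rats had 48.9, 49.96 and 49.6 TPM at Year 0.5, 72.7, 99.04 and 60.9 TPM at Year 1, and 60.9, 53.0 and 56.2 TPM at Year 2. The treated rats had 136, 138 and 115 TPM, then 171, 169 and 203 TPM, then 209, 179 and 173 TPM. The treated rats stood above the control rats throughout, and the control rats spread most at Year 1, where rat 2 was the highest. The log2 fold change was 1.54 (SE 0.09, FDR = 8.64e-06), 1.46 (SE 0.16, FDR = 0.000159) and 1.94 (SE 0.11, FDR = 2.24e-06), or 2.90-fold, 2.75-fold and 3.82-fold. The nearest genes over the 18 rats were Tmprss4, Slc4a5 and Trpv2, each with a root mean square difference of 0.22, farther than the genes nearest to Slc11a1.

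Slc40a1 encodes ferroportin, the exporter of cellular iron, and its row (chromosome 9, 52820683 to 52830457, minus strand) had 0 counts in each of the 18 libraries. A count of 0 allows up to 3 counts, or 0.142 to 0.226 CPM (counts scaled to depth), for counting error only. No fold change can be given for Slc40a1. A row named NEWGENE_620180 (chromosome 9, 52894365 to 52912293, minus strand), picked out after its values were seen, lies between the Slc40a1 row and Asnsd1, and RefSeq GRCr8 places Slc40a1 next to Asnsd1. It had 304 to 542 counts per rat and log2 fold changes of -0.38 (SE 0.11, FDR = 0.0269), -0.07 (SE 0.12, FDR = 0.682) and 0.17 (SE 0.10, FDR = 0.169). The files do not tie this row to ferroportin, so its values are not counted with those of the 9 genes.

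Time courses were tested in one model of all 18 rats. Of the 9 genes, 2 had a larger treatment difference at Year 2 than at Year 0.5, Tf and Slc11a1, where 1.31% of all genes tested had an interaction in either direction. Against Year 1, the treatment difference at Year 2 was again larger for the same 2 genes, by 0.82 (SE 0.14, FDR = 0.0277) for Tf and 0.63 (SE 0.13, FDR = 0.0474) for Slc11a1, against 0.478% of all genes. The Slc11a1 call against Year 1 was lost with DESeq2 size factors, with library size alone, without a filter on low counts and with only the rats compared (0.58 to 0.63, FDR 0.0539 to 0.0770). Leaving out single rats ended the Slc11a1 call in 13 of 18 fits (0.53 to 0.67) and the Tf call in 7 of 18 (0.75 to 0.83). For Tf these were control rats 2 or 3 of Year 1 and 1 or 2 of Year 2, and MWCNT-treated rats 1 or 3 of Year 1 and 1 of Year 2. For Slc11a1 they were the same 7, control rats 1 or 2 and MWCNT-treated rats 1 or 3 of Year 0.5, and MWCNT-treated rats 2 or 3 of Year 2. Between Year 0.5 and Year 1 no interaction was called by edgeR, 0% of all genes, with 1260 genes at an unadjusted p under 0.05.

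In MWCNT-treated rats 5 of the 9 genes rose between Year 0.5 and Year 2, where 13.5% of all genes changed in either direction. These were Tf by 1.43 (SE 0.10, FDR = 6.13e-07), Ftl1 by 0.72 (SE 0.10, FDR = 0.000164), Slc11a1 by 0.68 (SE 0.09, FDR = 0.000141), Hmox1 by 0.61 (SE 0.14, FDR = 0.00680) and Fth1 by 0.40 (SE 0.07, FDR = 0.00114). In control rats 2 of the 9 genes changed over the same span, where 6.65% of all genes did, namely Cp downward, as described, and Ftl1 upward by 0.36 (SE 0.10, FDR = 0.0364). LOC100360087 differed by 0.10 in the control rats (SE 0.10, FDR = 0.552), and the Ftl1 call was lost when control rats 1 or 3 of Year 0.5 or 1 or 2 of Year 2 were left out (0.27 to 0.42). These time comparisons share rats with the treatment comparisons and are not independent of them. They compare different rats, and those of Year 2 were older and had been dosed more times than those of Year 0.5. In treated rats, age and accumulated dose therefore cannot be told apart.

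The iron and heme pathway beyond the 10 genes was described with a list of 66 other genes, of which 64 were listed and 57, 58 and 59 were tested at the successive time points. Of these, 16, 19 and 26 were higher in MWCNT-treated rats, where 20.2%, 21.6% and 25.2% of all genes tested were, and 12, 8 and 10 were lower, where 18.6%, 19.6% and 24.0% of all genes were. Their median log2 fold change was 0.09, 0.15 and 0.23, against -0.02, 0.00 and -0.01 for all genes. The plasma carriers moved together: all 4 that were tested, Tf, Hp, Hpx and Lcn2, were higher at every time point. Tf is also one of the 10 genes, and Alb and Ltf were too low to test. Of 4 genes of heme breakdown, Hmox1 of the 10 genes included, 2, 2 and 4 were higher and none was lower. Of 6, 7 and 7 systemic regulators tested, 1, 2 and 2 were higher and 5, 4 and 3 were lower. For both, the shares of all genes were those given above.

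Hp, the plasma protein that binds free hemoglobin, was 42.2 to 71.6 TPM in controls and 170 to 346 TPM in the treated rats, with log2 fold changes of 1.97 (SE 0.10, FDR = 5.40e-06), 2.42 (SE 0.11, FDR = 2.22e-06) and 2.99 (SE 0.10, FDR = 1.94e-07). Hpx, which binds free heme, was 3.77 to 6.45 TPM and 8.96 to 37.8 TPM, with 1.52, 2.06 and 2.48. Lcn2, a carrier of iron-binding siderophores, was 8.23 to 17.3 TPM and 74.1 to 119 TPM, with 2.85, 3.38 and 3.28. Steap3, the ferrireductase of endosomes, was 2.35 to 4.93 TPM and 15.6 to 38.3 TPM, with 2.54, 2.77 and 3.57. These 4 genes are named because they were DEGs at all 3 time points, each upregulated. As that choice favors, their treated and control rats did not overlap. Of the 57, 58 and 59 other pathway genes tested, 5, 5 and 6 were upregulated DEGs, where 6.07%, 6.13% and 8.17% of all genes were. Alas2, the first enzyme of heme synthesis in red cell precursors, was the pathway gene that was a downregulated DEG throughout, with 37.2 to 83.6 TPM in controls, 7.96 to 22.8 TPM in the treated rats and log2 fold changes of -1.35, -1.16 and -2.03. Alas2 also stands in the red cell list, whose summed level was lower in every treated rat, and the part of red cells in its difference was not tested.

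Other uptake genes that were higher included Slc39a8, a zinc and iron importer, at 0.98, 0.82 and 0.91, and the endocytic receptor Lrp2 at 1.42, 0.74 and 0.97. Lrp1, which takes up hemopexin with its heme, was higher at Year 0.5 and Year 2 (0.62 and 0.95) and differed by 0.24 at Year 1 (FDR = 0.275), where MWCNT-treated rat 2 had 53.7 TPM and its companions 95.4 and 93.3 TPM. Cd163, the macrophage receptor for hemoglobin bound to haptoglobin, went against the other macrophage markers at Year 1, with 5.79, 10.7 and 8.90 TPM in controls and 2.70, 2.50 and 4.53 TPM in the treated rats (-1.15, SE 0.26, FDR = 0.00681), while at Year 2 it was higher (0.44, SE 0.14, FDR = 0.0234). Cubn, an endocytic receptor for transferrin, was lower at Year 0.5 (-0.80, FDR = 0.0124).

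Among the systemic regulators, Bmp6, the signal that tells the liver to make hepcidin, was 154 to 182 TPM in controls and 55.2 to 105 TPM in the treated rats, with log2 fold changes of -0.75, -0.62 and -1.26. The 3 endothelium markers tested were also lower at every time point, their sum being 1521 to 2017 TPM in controls and 485 to 1099 TPM after MWCNT, and the part of endothelium in the Bmp6 difference was not tested. Bmp2, a related ligand, was lower at Year 0.5 and Year 1 (-0.85 and -0.94) and differed by 0.03 at Year 2 (FDR = 0.900), and its Year 0.5 call was lost without MWCNT-treated rat 2 (-0.76, FDR = 0.0513). Hjv, their co-receptor, was lower at Year 0.5 (-1.64, SE 0.45, FDR = 0.0198), a call that was lost in the model of all 18 rats and without control rat 3 or MWCNT-treated rats 2 or 3. Hfe, the partner of transferrin receptors, was higher at 0.87, 0.76 and 0.78. Tmprss6, a protease that cuts hemojuvelin, had 1, 0 and 3 counts in the control rats and 21, 25 and 11 counts in the treated rats of Year 1 (FDR = 0.00255), and 7, 9 and 5 counts against 51, 91 and 64 counts at Year 2 (3.26, SE 0.33, FDR = 5.14e-05). Steap1, a relative of Steap4, had 5, 1 and 3 counts against 11, 18 and 11 counts at Year 2 (2.09, SE 0.57, FDR = 0.0142), and lost its call without control or MWCNT-treated rat 2.

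**Figure D5:**
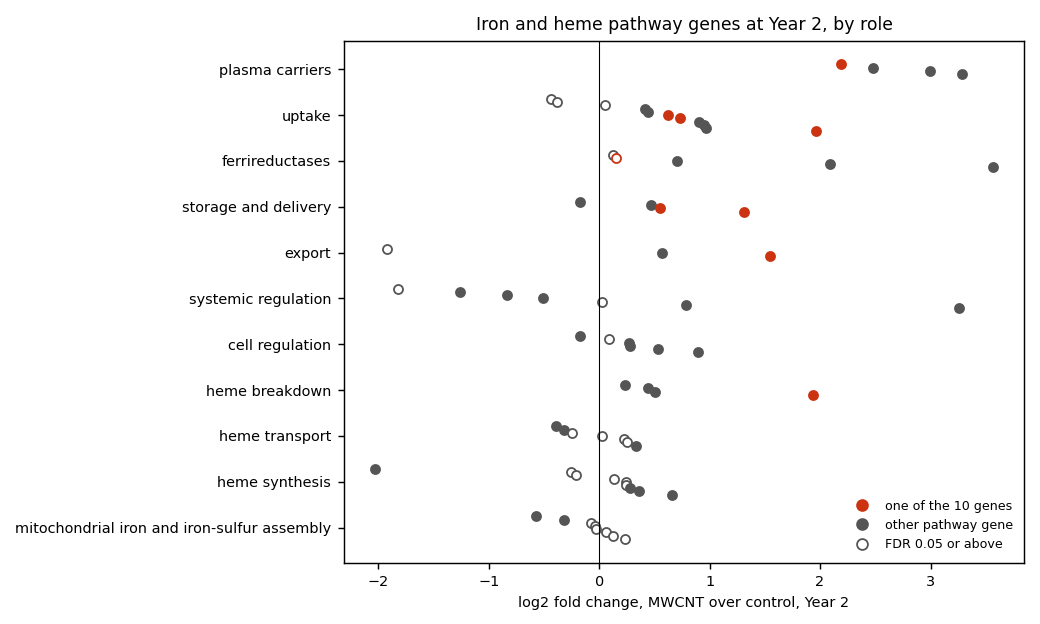
Log2 fold change of MWCNT-treated over control rats at Year 2 (horizontal axis, 3 rats per group) for the iron and heme pathway genes tested, 1 symbol per gene, in rows by role. Red symbols are 8 of the 10 genes called higher plus the uncalled Steap4, gray symbols are the other pathway genes, and open symbols did not pass an FDR of 0.05. All 4 plasma carriers lie above 2.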

How the data were processed

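The authors mapped reads of lung RNA with CLC Genomics Workbench (genome build Rnor_6.0, rn6, per the submitters' processing notes) and deposited a table per time point. The deposited counts are whole reads per gene without normalization, and TPM values, likewise deposited, came from the same reads. How reads matching several places were handled is not given in the sources used here. The deposited CPM and RPKM columns and the authors' own comparison columns (fold changes, p-values, FDR) were not used.

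Tests used edgeR 4.0.16 in R 4.3.3 on the counts (filterByExpr at its defaults, count 10 and total 15, TMM factors, quasi-likelihood test, Benjamini-Hochberg FDR over all genes tested) in the 6 rats of each time point. Interactions and effects of time came from one model of all 18 rats. limma 3.58.1 and DESeq2 1.42.0 were alternatives, and Python 3.11.15 read the sequences. The test was checked on simulated data with few genes changed, up or down at equal odds, and a fixed spread. That check does not cover scaling when many genes change, as they did here. Total counts were 13297643 to 21130757 per rat. Labels give the rats as separate samples. The edgeR p-values set each difference against the spread between rats, estimated with help from all genes. Permutation p-values rank the observed grouping of rats among its regroupings.

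The members and lists were chosen with earlier results of these data known. Named were the 10 genes, pathway genes that were DEGs at all 3 time points with up to 6 more per time point of largest change among those called, the 3 genes nearest to each member that was a DEG throughout, and ferritin copies. Genes named outside this rule are described as such, or had a called interaction with time.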

Additional observations from a re-analysis of the deposited data

Results flagged for a closer look

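The treatment difference changed between time points for 6 genes of the iron and heme pathway, by the interaction test of edgeR in all 18 rats. Tf and Slc11a1, described above, are 2 of these. Between Year 0.5 and Year 2, 2 of the 9 genes and 3 of 59 other pathway genes were called, where 1.31% of all genes were. Between Year 1 and Year 2, 2 of the 9 were called, with 1 of the 59 upward and 1 downward, where 0.478% of all genes were. For Tf the treatment difference was larger at Year 2 than at Year 0.5 by 1.32 (FDR = 0.000322) and than at Year 1 by 0.82 (FDR = 0.0277). For Slc11a1 it was larger at Year 2 by 0.64 (FDR = 0.0257) and 0.63 (FDR = 0.0474) than at Year 0.5 and Year 1, and the latter call was lost in 4 of 5 other settings. For Hp, the hemoglobin-binding plasma protein, it was larger at Year 2 than at Year 0.5 by 1.03 (SE 0.15, FDR = 0.00480).

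For Heph, a copper ferroxidase related to ceruloplasmin, the treatment difference was -0.18 at Year 0.5 (FDR = 0.149), -0.34 at Year 1 (FDR = 0.0126) and 0.57 at Year 2 (FDR = 0.00152), so that Year 2 exceeded Year 0.5 by 0.76 (FDR = 0.0144) and Year 1 by 0.92 (FDR = 0.0155). Heph read 27.6, 28.0 and 29.7 TPM in the control rats and 24.4, 23.7 and 19.9 TPM in the treated rats of Year 0.5. At Year 2 it read 18.5, 22.7 and 25.1 TPM in the control rats and 26.1, 31.1 and 27.3 TPM in the treated rats, and in the control rats it fell by 0.36 between these time points (FDR = 0.0383). For Aco1, the cytosolic aconitase that doubles as an iron sensor, the difference rose from 0.39 at Year 0.5 to 0.89 at Year 2, an interaction of 0.51 (FDR = 0.0153). For Bmp6 the difference at Year 2 was lower than at Year 1 by 0.62 on the log2 scale (interaction of -0.62, FDR = 0.0390). This Bmp6 interaction was not called in 10 of 18 fits that left out a rat, and that of Aco1 was not called without MWCNT-treated rat 3 of Year 0.5 or 1 of Year 2. The Heph interaction with Year 0.5 was not called without MWCNT-treated rat 3 of Year 0.5 (0.64, FDR = 0.0537), nor that with Year 1 without control rat 3 of Year 1 (0.97, FDR = 0.0506).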

How the results depend on the processing

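All differences were recomputed without a filter on low counts, with DESeq2 size factors or library size alone in edgeR, with a replicate block, and without each rat. Treatment differences were also recomputed with DESeq2, with limma on log2(TPM + 1) and in the model of all 18 rats, and interactions and effects of time with only the rats compared. For the named genes 506 of 523 values kept their direction and their side of the threshold, 14 lost a call, 1 gained one, and 2 turned direction, both of Steap4 at Year 2, which was not called (-0.021 with library size alone and -0.033 with limma). With rats left out, 662 of 720 kept both, 53 lost a call and 5 gained one. The number of the 9 genes called was 7 to 8, 9, and 8 to 9 at the 3 time points without single rats. Under the DEG criterion it was 3, 4 and 5. Beyond Fth1 and Steap4, limma also ended the calls of Tfrc (0.29, FDR = 0.0530) and Lrp2 (0.45, FDR = 0.115) at Year 1, and the cause was not tested. The number of other pathway genes called ranged from 19 to 28, 22 to 28 and 27 to 36 without single rats.

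The interactions of Year 2 with Year 0.5 numbered 1 to 3 without single rats and 2 in the 5 other settings. Cp joined them without control rat 3 of Year 2 (0.66, FDR = 0.0474) and Fth1 without MWCNT-treated rat 2 of Year 1 (0.33, FDR = 0.0418). Those of Year 2 with Year 1, settings added after seeing the data, numbered 0 to 3 without single rats, and 1 with DESeq2 size factors, 1 with library size alone, 1 without a filter and 1 with only the rats compared, Slc11a1 being the call lost in these 4. The effects of time in control rats numbered 1 to 2 without single rats, 1 with only the rats compared and 1 with a replicate block, and those in treated rats 5 without single rats and 5 to 6 in other settings. The log2 ratio of ferritin chains, also added later, was -0.84 to -0.76 under other definitions and -0.83 to -0.80 without single rats.

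Replicate numbers showed no clear pairing of the rats: same-numbered control and treated rats had correlations of -0.15 to 0.11, and 4 of 9 matched their own number best. With only 3 rats to match in each group, this check cannot exclude a pairing. With the block, 7, 9 and 8 of the 9 genes were called, with Fth1 at Year 0.5 lost (FDR = 0.0599), as was Ftl1 with time in control rats (FDR = 0.0516). With 3 rats per group, small differences such as that of Fth1 at Year 0.5 sat close to the threshold.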
